A study of Homo sapiens with 12 samples.

Results

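A set of 42 germ cell, cancer-testis and pluripotency genes was followed in esophageal squamous carcinoma cells in which UHRF1 was knocked down. The genes are a list of names drawn up with earlier results of these data known, and all 42 were found among the 57820 gene identifiers of the count files. By role they comprised 7 pluripotency genes, 7 cancer-testis antigen genes, 10 genes of meiosis and spermatocytes, 9 of the piRNA pathway, 5 of germ cell RNA binding and translation and 4 of germ cell transcription and chromatin. TE10 and Kyse410 are human cell lines established from squamous cell carcinomas of the esophagus. Each was stably infected with a short hairpin RNA (shRNA) construct against UHRF1 (shUHRF1) or with a scramble control, and polyadenylated RNA of 3 libraries was sequenced in each of the 4 groups, 12 in all. The labels do not give the number of hairpin sequences or clones, or whether libraries of 1 group were grown apart. The spread behind each p-value may therefore be technical only.

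UHRF1 recognises hemimethylated CpG sites behind the replication fork and brings the maintenance methyltransferase DNMT1 to them. Many germ cell and pluripotency genes have promoters that are methylated in somatic cells, and several are known to be transcribed when maintenance methylation is lost. Cancer-testis antigens are proteins made in the testis and in some tumours, and many of their genes lie on the X chromosome. DNA methylation was not among the measurements used here, so the word silenced stands for low RNA only.

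Gene reads ranged from 7857662 to 8194914 in TE10 shUHRF1, from 8053970 to 9809414 in TE10 scramble, from 8794930 to 11597426 in Kyse410 shUHRF1 and from 9512502 to 12005229 in Kyse410 scramble libraries. UHRF1 RNA, named by hand from ENSG00000034063, averaged 85.9 ± 3.49 CPM in TE10 shUHRF1 and 179 ± 5.34 CPM in TE10 scramble cells (SD, n = 3 each; CPM values, which are relative to the total of gene reads, were scaled between libraries by TMM). In Kyse410 it averaged 42.5 ± 0.892 CPM with shUHRF1 and 99.1 ± 3.47 CPM with the scramble. Squamous epithelial markers summed to 1360 to 1430 CPM in TE10 shUHRF1 against 1820 to 1840 CPM in TE10 scramble libraries, and to 1170 to 1190 CPM in Kyse410 shUHRF1 against 1060 to 1090 CPM in Kyse410 scramble libraries. All 12 of these markers had reads, though PKP1 was at most 1.07 CPM in any library and KRT5 at most 1.63 CPM in Kyse410. Markers of this list moved both ways in TE10. There KRT5 was at 7.69 to 8.56 CPM with shUHRF1 against 66.5 to 68.6 CPM with the scramble. CDH1 was at 114 to 122 CPM with shUHRF1 against 49.7 to 53.6 CPM with the scramble in TE10. Blood cell markers summed to at most 2.13 CPM in any library. The fibroblast and endothelial list, with 8 of 9 markers matched, summed to 61.7 to 71.1 CPM in TE10 shUHRF1 against 54.2 to 58.7 CPM in TE10 scramble libraries, and to 242 to 267 CPM in Kyse410 shUHRF1 against 139 to 149 CPM in Kyse410 scramble libraries. The endothelial cadherin gene CDH5 was at 90.7 to 104 CPM in Kyse410 shUHRF1 against 24.6 to 24.9 CPM in Kyse410 scramble libraries. In TE10 it was at 12.3 to 15.0 CPM with shUHRF1 against 7.11 to 10.2 CPM with the scramble. PDGFRB went the other way, at 3.36 to 3.69 CPM in Kyse410 shUHRF1 against 5.4 to 6.32 CPM in Kyse410 scramble libraries. In TE10 PDGFRB was at 0.511 to 1.06 CPM with shUHRF1 against 2.12 to 4.52 CPM with the scramble. COL1A1 took up to 159 CPM of the sum, while COL1A2, COL3A1 and the endothelial marker VWF were at most 0.119, 0.128 and 0.713 CPM in any library. The spermatid stage list, 5 of whose 8 genes (PRM1, PRM2, TNP1, TNP2 and AKAP4) had 0 reads in all libraries, summed to at most 0.737 CPM. The list for testis supporting and Leydig cells, all 8 of which were matched, summed to 18.0 to 23.1 CPM in TE10 shUHRF1 against 19.4 to 23.3 CPM in TE10 scramble libraries, and to 18.8 to 23.0 CPM in Kyse410 shUHRF1 against 16.1 to 17.6 CPM in Kyse410 scramble libraries. Within it the inhibin gene INHA was at 5.1 to 5.84 CPM in Kyse410 shUHRF1 against 1.02 to 2.08 CPM in Kyse410 scramble libraries. In TE10 the INHA ranges overlapped. AMH was higher with shUHRF1 in both lines, at 11.1 to 14.5 CPM against 9.05 to 10.8 CPM in TE10. In Kyse410 AMH was at 3.69 to 5.84 CPM against 3.03 to 3.58 CPM. GATA4 went the other way, at 5.37 to 7.51 CPM in TE10 shUHRF1 against 8.26 to 10.6 CPM in TE10 scramble libraries. In Kyse410 GATA4 was at most 10.5 CPM with shUHRF1 and at least 10.6 CPM with the scramble. The part of these marker lists in the results below was not tested.

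The promoters of 5 genes that were higher with shUHRF1 in both lines are printed first, since CpG sites are the substrate of maintenance methylation. Each line gives the 150 bases before the first start listed by RefSeq (GRCh38.p14), 5′ to 3′ on the gene's strand, with CG in capitals. The pluripotency genes are ZFP42 (chr4:187995621-187995770, plus strand) and DPPA2 (chr3:109316518-109316667, minus strand). The cancer-testis antigen genes are PRAME (chr22:22559266-22559415, minus strand), MAGEA3 (chrX:152698644-152698793, plus strand) and MAGEA6 (chrX:152769690-152769839, minus strand).
ZFP42: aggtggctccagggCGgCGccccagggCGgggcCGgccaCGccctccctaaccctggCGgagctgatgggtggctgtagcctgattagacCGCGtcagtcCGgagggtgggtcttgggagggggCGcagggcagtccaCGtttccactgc
DPPA2: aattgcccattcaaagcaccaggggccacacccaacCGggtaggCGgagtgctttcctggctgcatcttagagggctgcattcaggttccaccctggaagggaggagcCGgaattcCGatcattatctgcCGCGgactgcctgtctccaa
PRAME: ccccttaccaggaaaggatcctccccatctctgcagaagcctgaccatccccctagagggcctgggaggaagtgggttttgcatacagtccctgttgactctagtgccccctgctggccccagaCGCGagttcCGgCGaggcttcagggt
MAGEA3: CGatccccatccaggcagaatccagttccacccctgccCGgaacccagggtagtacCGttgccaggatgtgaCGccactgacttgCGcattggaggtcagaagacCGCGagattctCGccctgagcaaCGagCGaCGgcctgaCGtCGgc
MAGEA6: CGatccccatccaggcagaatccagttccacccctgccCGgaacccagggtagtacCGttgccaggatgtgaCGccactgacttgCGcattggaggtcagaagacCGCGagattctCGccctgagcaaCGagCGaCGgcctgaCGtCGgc
These stretches hold 11 CG in ZFP42, 6 in DPPA2, 4 in PRAME and 13 each in MAGEA3 and MAGEA6. The stretches of MAGEA3 and MAGEA6 were identical at 150 of 150 bases. For comparison, the same window is shown for the meiotic translation regulator gene DAZL (chr3:16605424-16605573, minus strand) and for the piRNA pathway genes MAEL (chr1:166975432-166975581, plus strand) and TDRD1 (chr10:114179137-114179286, plus strand), which had 2, 3 and 0 reads over all 12 libraries.
DAZL: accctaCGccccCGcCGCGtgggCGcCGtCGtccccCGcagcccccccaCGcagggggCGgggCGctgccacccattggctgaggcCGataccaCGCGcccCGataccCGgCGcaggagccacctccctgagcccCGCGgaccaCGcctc
MAEL: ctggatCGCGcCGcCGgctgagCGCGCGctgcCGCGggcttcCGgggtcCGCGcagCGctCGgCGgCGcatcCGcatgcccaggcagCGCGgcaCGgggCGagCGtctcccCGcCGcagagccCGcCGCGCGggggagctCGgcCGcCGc
TDRD1: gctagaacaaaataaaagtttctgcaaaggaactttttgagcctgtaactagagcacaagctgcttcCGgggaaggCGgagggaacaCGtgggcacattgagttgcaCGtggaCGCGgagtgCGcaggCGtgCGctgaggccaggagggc
DAZL holds 20 CG in this stretch, MAEL 31 and TDRD1 9, so these near-silent genes span a wide range of CpG number. TDRD1 also carries the E-box CACGTG at 2 places, seen in the printed line as caCGtg.

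Most of the 42 genes had few or no reads. Over the 12 libraries together 24 had at least 10 reads, 9 had 1 to 9 and 9 had none. The 9 without a read were TDRD1, ASZ1, TEX101, TEX15, DPPA3, DPPA4, DPPA5, LIN28B and SPATA22. The edgeR filter on low counts was passed by 11 of the 42 (SYCP2, SYCP3, MOV10L1, TEX14, HORMAD1, DPPA2, ZFP42, POU5F1, PRAME, MAGEA3 and MAGEA6), and the other 31 were not tested in the fit. A gene can pass this filter through the group in which it is high, so neither the share called nor the median fold change among those tested describes the whole set.

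**Figure D1:**
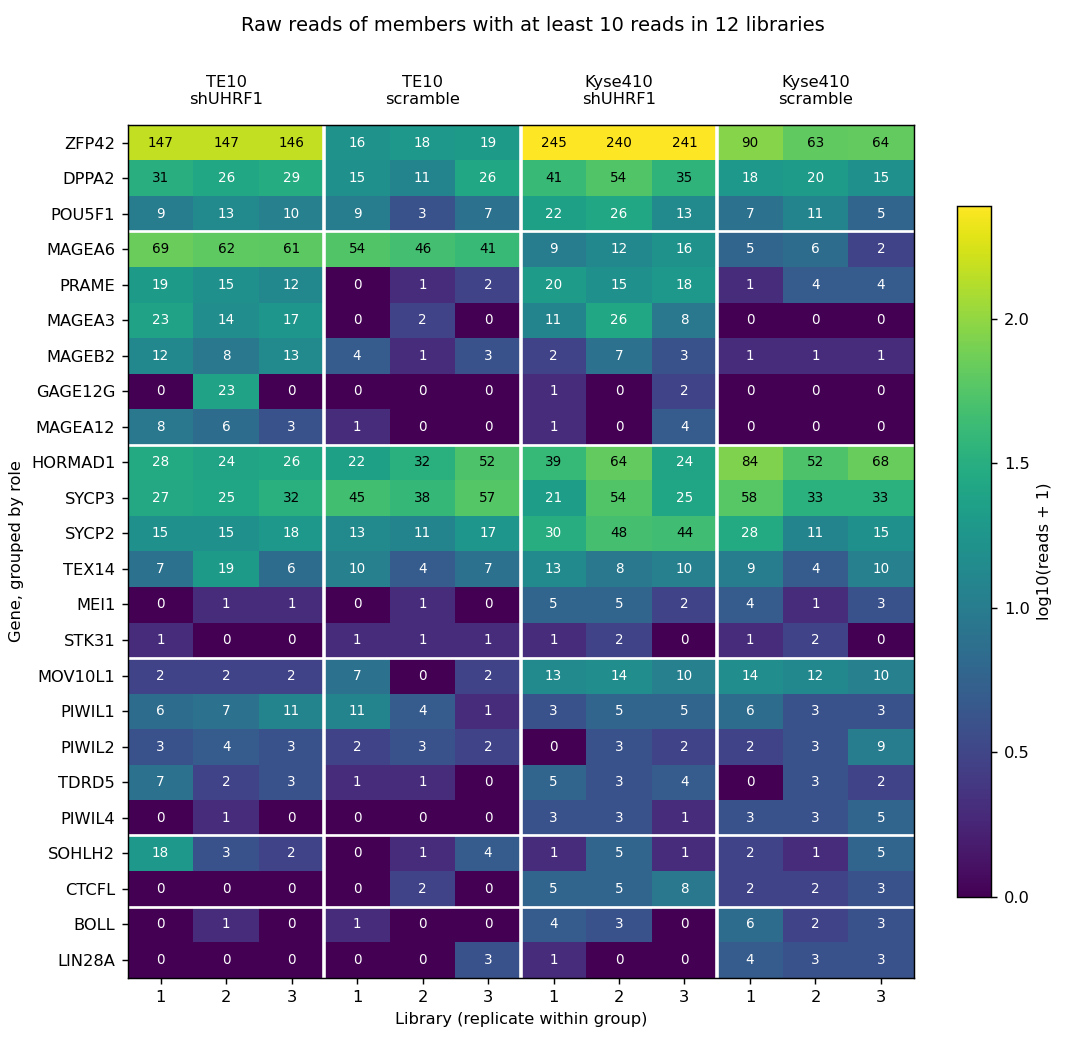
Raw reads per library (columns, 3 libraries per group) of the 24 genes with at least 10 reads in all (rows, grouped by role and divided by white lines), with colour on a log10(reads + 1) scale and the read number printed in each cell. ZFP42 reached 245 reads in Kyse410 shUHRF1, and MAGEA3 had 0 reads in each Kyse410 scramble library.

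In TE10, 5 of the 11 tested genes were higher with shUHRF1 and 0 were lower at an adjusted p under 0.05 (edgeR quasi-likelihood test, Benjamini-Hochberg over 16060 genes). Of all genes tested in TE10, 18.8% were called higher and 20% lower. In Kyse410, 7 of the 11 were higher and 1 was lower, where 22.6% of all genes tested were called higher and 26.7% lower. The 5 called higher in both lines were ZFP42, DPPA2, PRAME, MAGEA3 and MAGEA6. Of all genes tested, 1117 (6.96%) were called higher in both. The median log2 fold change of the 11 was 0.73 in TE10 and 1.29 in Kyse410 (MAGEA3 set at its bound), beside medians of 0.001 and −0.025 over all genes tested. MAGEA3, PRAME, POU5F1, TEX14 and MOV10L1 passed the filter only with their shUHRF1 libraries counted, which can raise the shares called and these medians.

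**Figure D2:**
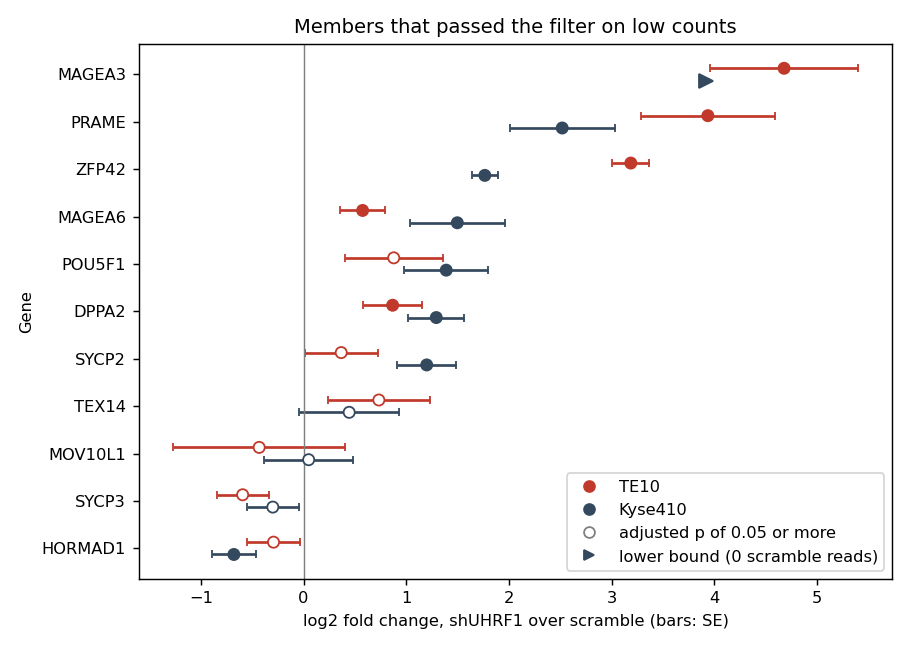
Log2 fold change of shUHRF1 over scramble (x axis) with its SE for the 11 tested genes (rows) in TE10 (red) and Kyse410 (blue), where filled symbols passed an adjusted p of 0.05. MAGEA3 in Kyse410, with 0 scramble reads, is drawn as a triangle at 15.1-fold, the value over a floor of 3 reads, and HORMAD1 in Kyse410 is the filled point below 0.

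Among the pluripotency genes, ZFP42 (REX1, a zinc finger protein used as a marker of pluripotent stem cells) had the most reads of the set. It had 147, 147 and 146 reads in the TE10 shUHRF1 libraries, against 16, 18 and 19 reads in the TE10 scramble libraries. In Kyse410 it had 245, 240 and 241 reads with shUHRF1, against 90, 63 and 64 reads with the scramble. The groups did not overlap in either line. Its level was 19.0 ± 0.364 CPM in TE10 shUHRF1 and 2.07 ± 0.064 CPM in TE10 scramble cells, or 3.19 higher on the log2 scale (SE 0.18; adjusted p = 5.83e-21 in edgeR). In Kyse410 it was 22.7 ± 3.25 CPM with shUHRF1 and 6.60 ± 0.643 CPM with the scramble, or 1.77 higher on the log2 scale (SE 0.128; adjusted p = 4.71e-17 in edgeR). The change was smaller in Kyse410 than in TE10 by 1.42 on the log2 scale (SE 0.242, edgeR adjusted p = 3.61e-06). The lines also differed before knockdown: ZFP42 was 1.67 higher on the log2 scale in Kyse410 scramble than in TE10 scramble cells (SE 0.209, edgeR adjusted p = 5.19e-10).

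DPPA2, which forms a chromatin-bound pair with DPPA4 in early embryonic cells, rose in both lines. It had 31, 26 and 29 reads in TE10 shUHRF1 libraries, against 15, 11 and 26 in TE10 scramble libraries, and 41, 54 and 35 reads in Kyse410 shUHRF1 libraries, against 18, 20 and 15 in Kyse410 scramble libraries. After scaling, the groups did not overlap in either line, with TE10 scramble replicate 3 the highest of the controls. The log2 fold change was 0.87 in TE10 (SE 0.291; adjusted p = 0.0145 in edgeR) and 1.29 in Kyse410 (SE 0.271, edgeR adjusted p = 7.08e-05). Without TE10 scramble replicate 2 the TE10 change was 0.64 and did not pass (edgeR adjusted p = 0.111). The partner gene DPPA4 had 0 reads in all 12 libraries, so DPPA2 RNA appeared in these counts without DPPA4 RNA.

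POU5F1 encodes OCT4, a core transcription factor of pluripotent cells. It had 22, 26 and 13 reads in Kyse410 shUHRF1 libraries, against 7, 11 and 5 in Kyse410 scramble libraries, and rose by 1.39 on the log2 scale (SE 0.407, edgeR adjusted p = 0.00364). In TE10 it had 9, 13 and 10 reads with shUHRF1, against 9, 3 and 7 with the scramble, where the log2 fold change of 0.88 (SE 0.477) did not pass (edgeR adjusted p = 0.145). Of the 50-base stretches in its annotated transcripts, 37.4% recur in other genes, among them POU5F1B and POU5F1 pseudogenes, and its exons overlap those of TCF19 on the opposite strand over 248 bases. TCF19 rose by 1.33 on the log2 scale in Kyse410 (SE 0.061, edgeR adjusted p = 5.63e-25) and was at 0.15 in TE10 (edgeR adjusted p = 0.0531). With the strand setting of the counts not given in the sources used here, reads of POU5F1 and of TCF19 in the overlap cannot be told apart.

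The remaining pluripotency genes were at or near 0. NANOG, another core pluripotency factor, had 1 read, in a Kyse410 scramble library. DPPA3, whose mouse product binds and inhibits UHRF1, had 0 reads, as did DPPA4 and DPPA5. A count of 0 allows up to 3 reads in a library at 95% confidence, so low transcription of these genes was not detectable at this depth.

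The 3 cancer-testis antigen genes that were tested (PRAME, MAGEA3 and MAGEA6) were called higher in both lines, as were 6.96% of all genes tested. PRAME and MAGEA3 passed the filter only with their shUHRF1 libraries counted, so this count does not describe the 7 antigen genes of the set. PRAME, a substrate receptor of a ubiquitin ligase and a melanoma antigen, had 19, 15 and 12 reads in TE10 shUHRF1 libraries, against 0, 1 and 2 in TE10 scramble libraries. In Kyse410 it had 20, 15 and 18 reads with shUHRF1, against 1, 4 and 4 with the scramble. Every shUHRF1 library lay above every scramble library of its line. The pooled reads of TE10, 46 with shUHRF1 and 3 with the scramble, gave a ratio of 16.9 after scaling, with a 95% exact counting interval of 5.43 to 84.9. The fit gave log2 fold changes of 3.94 in TE10 (SE of 0.656, edgeR adjusted p = 2.16e-06) and 2.52 in Kyse410 (SE 0.513, edgeR adjusted p = 4.47e-05). The TE10 estimate was 4.73 without scramble replicate 3. No 50-base stretch of the PRAME transcripts recurs in another annotated gene.

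MAGEA3, which with MAGEA6 encodes closely related adaptor proteins of the ubiquitin ligase TRIM28, was almost absent from the controls. It had 23, 14 and 17 reads in TE10 shUHRF1 libraries, against 0, 2 and 0 in TE10 scramble libraries, and 11, 26 and 8 reads in Kyse410 shUHRF1 libraries, against 0, 0 and 0 in Kyse410 scramble libraries. The groups were fully separate in both lines. In TE10 the ratio of pooled reads was 29.8 with a 95% exact counting interval of 7.85 to 252, and the fitted log2 fold change was 4.68 (SE 0.721, edgeR adjusted p = 5.17e-07). Without TE10 scramble replicate 2, which holds both control reads, the fit gave 7.49, a value set by the prior count. In Kyse410 the level was at least 15.1-fold higher with shUHRF1, taking 3 reads over the scramble group as the floor, and an exact 95% counting interval starts at 11.8-fold (edgeR adjusted p = 3.22e-07).

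MAGEA6 differed from MAGEA3 in that TE10 controls already had its RNA. It had 69, 62 and 61 reads in TE10 shUHRF1 libraries, against 54, 46 and 41 in TE10 scramble libraries, and 9, 12 and 16 reads in Kyse410 shUHRF1 libraries, against 5, 6 and 2 in Kyse410 scramble libraries. The scaled levels did not overlap between groups in either line. The log2 fold change was 0.58 in TE10 (SE 0.219; adjusted p = 0.0325 in edgeR) and 1.5 in Kyse410 (SE 0.464, edgeR adjusted p = 0.00595). The TE10 call was lost without shUHRF1 replicate 1, 2 or 3 or scramble replicate 2 or 3 (edgeR adjusted p = 0.0779, 0.0511, 0.0586, 0.0784 and 0.195). The Kyse410 call was lost without shUHRF1 replicate 3 (edgeR adjusted p = 0.063). Among scramble controls MAGEA6 was 3.76 lower on the log2 scale in Kyse410 than in TE10 (SE 0.353, edgeR adjusted p = 8.78e-14). Of the 50-base stretches of MAGEA3, 56.5% recur in other genes, and of those of MAGEA6, 53.9%, mostly in each other and in MAGEA2, so reads could be split or dropped between these paralogs.

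**Figure D3:**
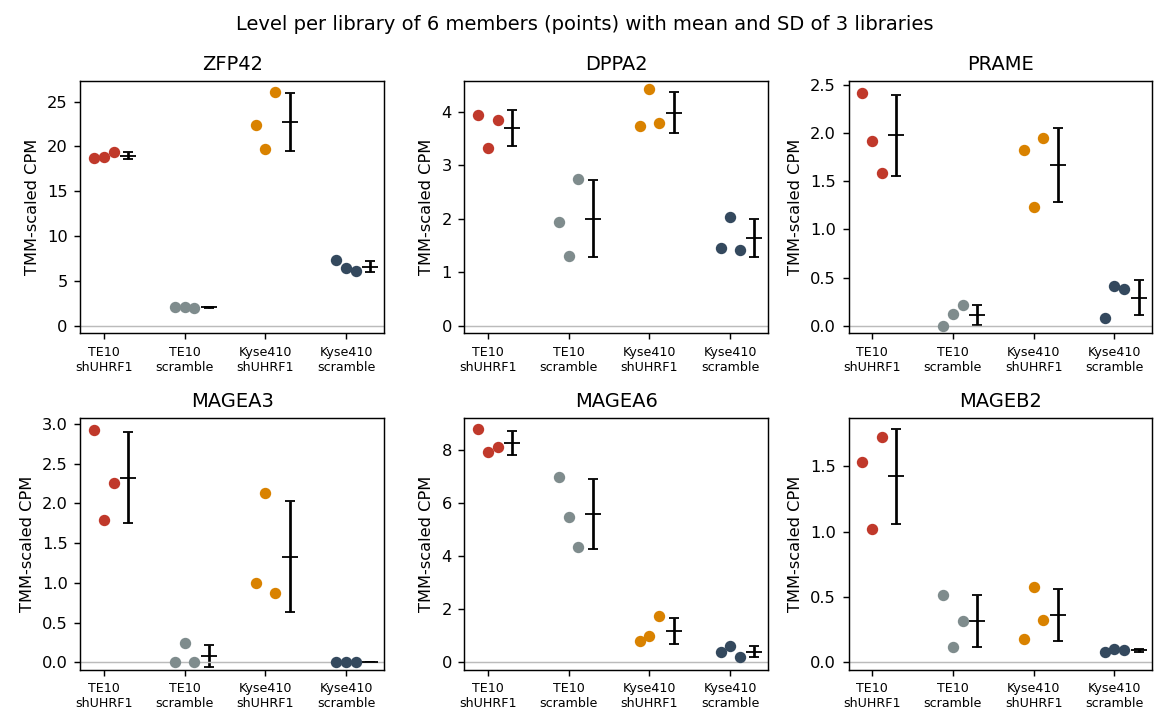
TMM-scaled CPM (y axis, own scale per panel) of 6 genes in each library (points) with the mean and SD of 3 libraries (black) for shUHRF1 and scramble cells of both lines. The shUHRF1 points lie above the scramble points of their line in all 6 panels, and the TE10 scramble points of MAGEA6 lie between 4.34 and 6.98 CPM.

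The other cancer-testis antigen genes were too low for the filter and are described by their reads. MAGEB2 had 12, 8 and 13 reads in TE10 shUHRF1 libraries, against 4, 1 and 3 in TE10 scramble libraries, and 2, 7 and 3 reads in Kyse410 shUHRF1 libraries, against 1, 1 and 1 in Kyse410 scramble libraries. MAGEA12 had 8, 6 and 3 reads in TE10 shUHRF1 libraries, against 1, 0 and 0 in TE10 scramble libraries, a ratio of pooled reads of 18.7 with an exact counting interval of 2.94 to 783. In Kyse410 MAGEA12 had 1, 0 and 4 reads with shUHRF1, against 0, 0 and 0 with the scramble. MAGEB2 was thus higher in every shUHRF1 library of both lines, and MAGEA12 was separate in TE10 alone. MAGEA4 had 0, 1 and 0 reads in TE10 shUHRF1 libraries, against 0, 0 and 0 in TE10 scramble libraries, and 1, 4 and 2 reads in Kyse410 shUHRF1 libraries, against 0, 0 and 0 in Kyse410 scramble libraries.

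GAGE12G, one of a cluster of near-identical X-linked antigen genes, rested on 1 library. It had 0, 23 and 0 reads in TE10 shUHRF1 libraries, against 0, 0 and 0 in TE10 scramble libraries, and 1, 0 and 2 reads in Kyse410 shUHRF1 libraries, against 0, 0 and 0 in Kyse410 scramble libraries. All (100%) of its 50-base stretches recur in other GAGE copies, so single copies cannot be told apart. Summed over 11 annotated copies, a sum chosen after its values were seen, the family had 7, 32 and 8 reads in TE10 shUHRF1 libraries, against 0, 0 and 0 in TE10 scramble libraries, which is at least 17.3-fold higher over a floor of 3 reads for the group (an exact 95% counting interval starts at 13.5-fold). Without TE10 shUHRF1 replicate 2, which holds 32 of the 47 reads, the value over the floor was 8.31-fold and the interval started at 5.96-fold. In Kyse410 the family had 1, 1 and 3 reads with shUHRF1, against 0, 0 and 0 with the scramble. The X-linked relative MAGEA1, also chosen after its values were seen, averaged 31.2 ± 1.49 CPM in TE10 shUHRF1 and 30.4 ± 0.356 CPM in TE10 scramble cells (log2 0.04, edgeR adjusted p = 0.766). In Kyse410 MAGEA1 averaged 12.2 ± 1.6 CPM with shUHRF1 and 14.9 ± 0.863 CPM with the scramble, a fall of 0.29 on the log2 scale (edgeR adjusted p = 0.0275).

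Of the 4 meiosis genes of the set that were tested, none was called in TE10, and 1 was higher and 1 lower in Kyse410. SYCP2, which builds the lateral element of the synaptonemal complex, rose in Kyse410, where it had 30, 48 and 44 reads with shUHRF1, against 28, 11 and 15 with the scramble (log2 1.20, SE 0.288, edgeR adjusted p = 0.00043). In TE10 SYCP2 had 15, 15 and 18 reads with shUHRF1, against 13, 11 and 17 with the scramble (log2 0.37, SE 0.355, edgeR adjusted p = 0.444). The groups were separate after scaling in both lines. The difference between the lines, 0.83 on the log2 scale for Kyse410 minus TE10 (SE 0.462), did not pass (edgeR adjusted p = 0.154).

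HORMAD1 is a protein of the meiotic chromosome axis that is also found in some tumours. It was the only tested gene of the set called lower in the fit of all 12 libraries. It had 39, 64 and 24 reads in Kyse410 shUHRF1 libraries, against 84, 52 and 68 in Kyse410 scramble libraries, and its log2 fold change was −0.68 (SE 0.216, edgeR adjusted p = 0.00747). The groups did not overlap after scaling. Without Kyse410 shUHRF1 replicate 3, the lowest library, the value was −0.49 and did not pass (edgeR adjusted p = 0.076). In TE10 it had 28, 24 and 26 reads with shUHRF1, against 22, 32 and 52 with the scramble (log2 −0.29, SE 0.263, edgeR adjusted p = 0.406). HORMAD1 RNA was thus present in the controls of both lines, 0.59 higher on the log2 scale in Kyse410 scramble than in TE10 scramble cells (SE 0.224, edgeR adjusted p = 0.0155).

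SYCP3, the partner of SYCP2 in the lateral element, did not follow it. It had 27, 25 and 32 reads in TE10 shUHRF1 libraries, against 45, 38 and 57 in TE10 scramble libraries (log2 −0.59, SE 0.253, edgeR adjusted p = 0.0582). In Kyse410 it had 21, 54 and 25 reads with shUHRF1, against 58, 33 and 33 with the scramble (log2 −0.30, SE 0.25, edgeR adjusted p = 0.337). The TE10 groups did not overlap and the Kyse410 groups did, with shUHRF1 replicate 2 high. Without that library the Kyse410 value was −0.70 (edgeR adjusted p = 0.0431). In TE10 an edgeR adjusted p between 0.0383 and 0.0478 was reached in 5 of the alternatives, so SYCP3 stands at the threshold. SYCP3 exons overlap those of CHPT1, a choline phosphotransferase gene, on the opposite strand over 566 bases (14.8% of its exon bases). CHPT1 was at 0.13 in TE10 (edgeR adjusted p = 0.168) and fell by 0.45 on the log2 scale in Kyse410 (edgeR adjusted p = 5.06e-07), and reads in the overlap cannot be told apart.

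TEX14, needed for the bridges between germ cells, had 7, 19 and 6 reads in TE10 shUHRF1 libraries, against 10, 4 and 7 in TE10 scramble libraries, and 13, 8 and 10 reads in Kyse410 shUHRF1 libraries, against 9, 4 and 10 in Kyse410 scramble libraries. It did not pass in either line (log2 0.73 and 0.44, edgeR adjusted p = 0.253 and 0.478), and without TE10 shUHRF1 replicate 2 the TE10 value was 0.04. MEI1, required for meiotic DNA breaks in the mouse, had 0, 1 and 1 reads in TE10 shUHRF1 libraries, against 0, 1 and 0 in TE10 scramble libraries, and 5, 5 and 2 reads in Kyse410 shUHRF1 libraries, against 4, 1 and 3 in Kyse410 scramble libraries. STK31, a testis kinase, had 0 to 2 reads in every library. SYCP1, which forms the transverse filaments of the synaptonemal complex, had 1 read in all, and SPATA22, TEX15 and TEX101 had none.

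The piRNA pathway silences transposons in germ cells through PIWI proteins and their small RNAs, and most of the 9 genes of the set had few reads. MOV10L1, a helicase of piRNA biogenesis and the only one of 9 that was tested, had 2, 2 and 2 reads in TE10 shUHRF1 libraries, against 7, 0 and 2 in TE10 scramble libraries. In Kyse410 it had 13, 14 and 10 reads with shUHRF1, against 14, 12 and 10 with the scramble. It did not pass in either line (log2 −0.43 and 0.05, SE 0.84 and 0.432, edgeR adjusted p = 0.724 and 0.938), and it was 1.61 higher on the log2 scale in Kyse410 scramble than in TE10 scramble cells (SE 0.582, edgeR adjusted p = 0.0121). TDRD5, a Tudor protein of germ granules, had 7, 2 and 3 reads in TE10 shUHRF1 libraries, against 1, 1 and 0 in TE10 scramble libraries, and 5, 3 and 4 reads in Kyse410 shUHRF1 libraries, against 0, 3 and 2 in Kyse410 scramble libraries. The PIWI gene PIWIL1 had 6, 7 and 11 reads in TE10 shUHRF1 libraries, against 11, 4 and 1 in TE10 scramble libraries, and 3, 5 and 5 reads in Kyse410 shUHRF1 libraries, against 6, 3 and 3 in Kyse410 scramble libraries. The TDRD5 groups were separate in TE10 alone, and those of PIWIL1 overlapped in both lines. PIWIL2 had 0 to 9 reads and PIWIL4 0 to 5 reads in any library. MAEL had 3 reads in all, in Kyse410 shUHRF1 libraries, TDRD9 had 1 read, and TDRD1 and ASZ1 had none.

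Among germ cell RNA-binding genes, DAZL had 2 reads in all, both in a TE10 shUHRF1 library, and the germ cell helicase gene DDX4 had 2 reads, both in scramble libraries. LIN28A, which blocks processing of let-7 microRNAs, had 0, 0 and 0 reads in TE10 shUHRF1 libraries, against 0, 0 and 3 in TE10 scramble libraries, and 1, 0 and 0 reads in Kyse410 shUHRF1 libraries, against 4, 3 and 3 in Kyse410 scramble libraries. It was the other gene besides HORMAD1 whose Kyse410 shUHRF1 libraries all lay below the scramble libraries. BOLL, of the DAZ family, had 0 to 6 reads in any library and LIN28B had none.

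Of the transcription and chromatin genes, the CTCF paralog CTCFL (BORIS) had 5, 5 and 8 reads in Kyse410 shUHRF1 libraries, against 2, 2 and 3 in Kyse410 scramble libraries. In TE10 it had 0, 0 and 0 reads with shUHRF1, against 0, 2 and 0 with the scramble. SOHLH2, a transcription factor of early germ cell differentiation, had 18, 3 and 2 reads in TE10 shUHRF1 libraries, against 0, 1 and 4 in TE10 scramble libraries, and 1, 5 and 1 reads in Kyse410 shUHRF1 libraries, against 2, 1 and 5 in Kyse410 scramble libraries. The SOHLH2 excess lay in TE10 shUHRF1 replicate 1, and 42.5% of its 50-base stretches recur in the read-through gene CCDC169-SOHLH2. The testis bromodomain gene BRDT and DMRTB1 had 1 read each.

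With the filter set at 10 reads over all 12 libraries, all 24 genes with that many reads could be fitted. A gene can pass this filter, too, through the group in which it is high. GAGE12G had 0 reads in scramble libraries, and MAGEA12 had 1, in TE10. The shares called below therefore do not describe the whole set. In TE10, 9 of the 24 were then called higher and 0 lower (edgeR adjusted p under 0.05), where 13.3% of the 21649 genes fitted were called higher and 15.6% lower. The 4 added were SOHLH2 (edgeR adjusted p = 0.0278), MAGEA12 (0.00799), MAGEB2 (0.0075) and GAGE12G (0.000447). In alternatives chosen after seeing the data, without TE10 shUHRF1 replicate 1, 6 of 23 were called and SOHLH2 was not (edgeR adjusted p = 0.717). Without TE10 shUHRF1 replicate 2, GAGE12G was no longer fitted and 9 of 23 were called, TDRD5 among them (edgeR adjusted p = 0.048). In Kyse410, 7 of the 24 were called higher and 1 lower, where 17.7% of all genes fitted were called higher and 19.3% lower, and MAGEB2, MAGEA12 and LIN28A stood at edgeR adjusted p of 0.105, 0.0728 and 0.071.

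Counted by libraries alone, 10 of the 24 had all 3 TE10 shUHRF1 libraries above all 3 TE10 scramble libraries in scaled level, and 1 (SYCP3) had them all below. Over genes with at least 10 reads these shares were 18.8% above and 19.4% below. The limit given above for a filter on total reads holds here too. In Kyse410, 9 of the 24 lay above and 2 (HORMAD1 and LIN28A) below, where the shares over all such genes were 21.8% and 23.8%. SYCP2, DPPA2, ZFP42, PRAME, MAGEA3, MAGEA6 and MAGEB2 lay above in both lines, 7 of 24, as did 1444 of the 21649.

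More of the 42 genes were detected per library with shUHRF1. The same count over all genes was not made, so these numbers describe the set alone. In TE10, 20.3 ± 1.53 genes had at least 1 read in shUHRF1 libraries and 17.0 ± 1.0 in scramble libraries (SD, n = 3 each). In Kyse410 the numbers were 24.0 ± 1.0 with shUHRF1 and 21.0 ± 1.0 with the scramble. The shUHRF1 and scramble libraries did not overlap in either line at this minimum. With at least 3 reads as the minimum they overlapped in Kyse410, with 17, 21 and 16 genes in shUHRF1 libraries, against 14, 15 and 17 in scramble libraries, and stayed apart in TE10, with 16, 16 and 15 genes against 11, 10 and 11. A comparison of 3 libraries with 3 cannot give an exact two-sided permutation p under 0.1. At the depth of the shallowest library the expected numbers were 20.3 against 16.6 in TE10 and 23.1 against 19.9 in Kyse410, shUHRF1 before scramble. The summed level of all 42 genes was 53.8 ± 1.18 CPM in TE10 shUHRF1 and 24.9 ± 3.15 CPM in TE10 scramble cells, and 49.1 ± 3.40 CPM in Kyse410 shUHRF1 and 25.9 ± 2.03 CPM in Kyse410 scramble cells. Without ZFP42 it was 34.9 ± 1.5 against 22.9 ± 3.20 CPM in TE10 and 26.4 ± 3.52 against 19.3 ± 1.44 CPM in Kyse410, so ZFP42 alone made up much of the gap, above all in Kyse410.

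**Figure D4:**
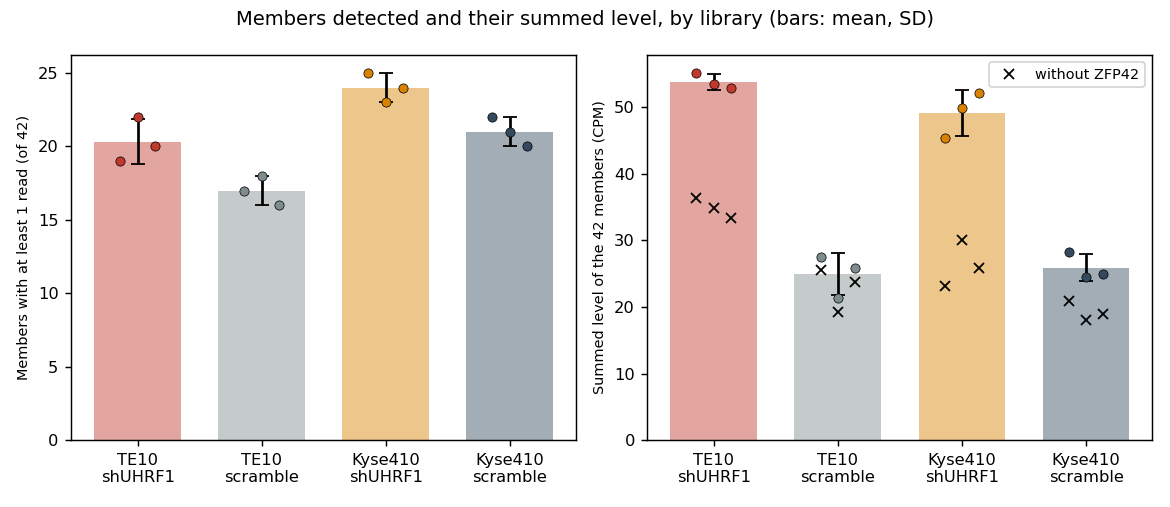
Number of the 42 genes with at least 1 read (left) and their summed TMM-scaled CPM (right) in each library (points), with the mean (bars) and SD of 3 libraries, and the sum without ZFP42 as crosses. In both panels the shUHRF1 points lie above the scramble points of their line, with TE10 sums between 52.8 and 55.1 CPM for shUHRF1 and between 21.4 and 27.5 CPM for the scramble.

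The lines were also compared directly. Of the 11 tested genes, ZFP42 alone differed between the lines in its response to shUHRF1 (edgeR adjusted p under 0.05), where 38.9% of all genes tested did. A p that misses the threshold does not show that the other 10 responded alike: for PRAME the difference, Kyse410 minus TE10, was −1.42 with an SE of 1.01 (edgeR adjusted p = 0.279). Among scramble controls, ZFP42, MOV10L1 and HORMAD1 were higher in Kyse410 than in TE10 and MAGEA6 and SYCP3 were lower (SYCP3 −0.53 on the log2 scale, SE 0.237, edgeR adjusted p = 0.04), 3 and 2 of 11, where 36.7% of all genes tested were higher and 37.1% lower. ZFP42 and MAGEA6 passed in every alternative run. SYCP3 did not pass with RLE scaling (edgeR adjusted p = 0.0518) or DESeq2 (adjusted p = 0.0983), and HORMAD1, MOV10L1 and SYCP3 were each lost without 1 or another scramble library, at edgeR adjusted p up to 0.126, 0.108 and 0.145. These calls share the scramble libraries with the knockdown comparisons.

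Promoters from RefSeq were at hand for 35 of the 42 genes, 52 promoters of 300 bases from 250 before to 50 after each start. Observed over expected CpG, the number of CG relative to that given by the C and G content, had a median of 0.68 in the set and 0.74 in 22199 promoters of protein-coding genes. A ratio of at least 0.6 was found in 30 promoters of the set (57.7%) and in 62.2% of all. At the first start the ratio was 0.697 in ZFP42, 0.356 in DPPA2, 0.481 in PRAME and 0.664 in both MAGEA3 and MAGEA6, a median of 0.66 for the 5 genes higher in both lines. Of the 9 genes with 0 reads, 8 had a promoter, with a median of 0.70 and a range of 0.17 in TEX101 to 0.983 in LIN28B. The genes that rose and those that stayed at 0 therefore covered overlapping ranges of CpG content.

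A pair of short motifs was searched on both strands: CACGTG, the E-box bound by MAX and its partner MGA, and TCCCGC, a core of E2F sites, both known from the PRC1.6 repressor complex that acts on germline genes. The E-box was found in 11 of the 52 promoters (21.2%) and in 8.3% of all protein-coding promoters, and the E2F letters in 17 (32.7%) and in 33.5% of all. Both shares count every listed start, so an E-box in overlapping windows counts more than once, as in TDRD1 and BRDT. At first listed starts the E-box was in 3 of 18 genes with at least 10 reads. It was in 1 of 9 with 1 to 9 reads and in 1 of 8 with 0 reads. At their first listed starts, the 5 genes higher in both lines held the E-box in 0 and the E2F letters in 0. STK31 and TDRD1 had 2 E-boxes each. A match of letters is a description and not a bound site, and no match says only that these letters are not in this window.

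**Figure D5:**
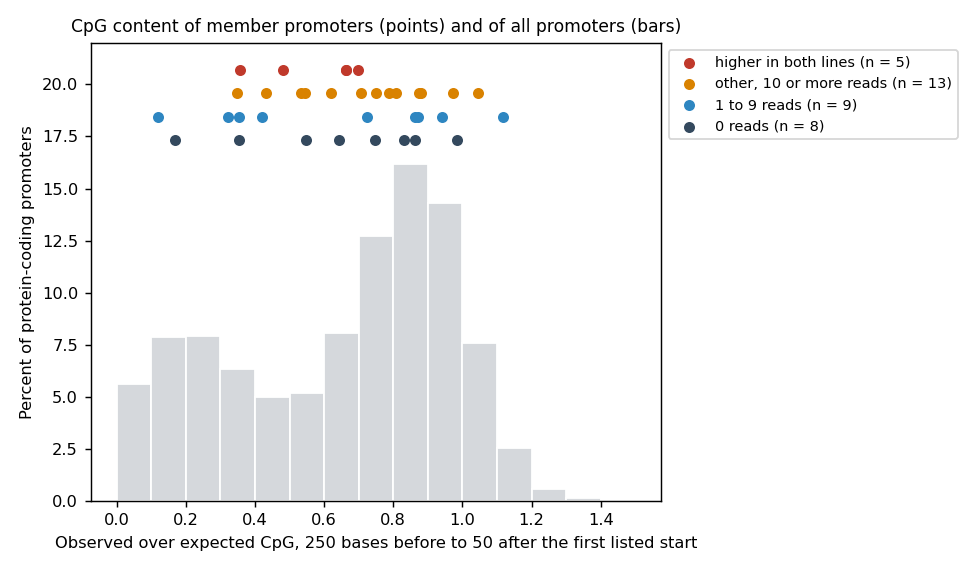
Observed over expected CpG in 300 bases around the first listed start (x axis) for the set's 35 genes with a promoter (points, in rows by reads, height without meaning) above the distribution in 22199 promoters of protein-coding genes (bars, percent on the y axis). The points of the 5 genes higher in both lines lie between 0.356 and 0.697, within the range of the genes with 0 reads.

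Other genes of the same pathways were counted from lists that leave out the 42. Their counts, and those of the methylation and repressor lists further below, stand beside 18.8% higher and 20% lower over all genes tested in TE10. In Kyse410 these shares were 22.6% higher and 26.7% lower. Nothing particular to a list is read from the counts. Of 25 further piRNA and germ granule genes 8 were tested, with 1 higher and 2 lower in TE10 and 2 higher and 1 lower in Kyse410. PLD6, a mitochondrial nuclease of piRNA biogenesis in the mouse, rose by 0.63 in TE10 (SE 0.136, edgeR adjusted p = 0.000166) and fell by 1.0 in Kyse410 (SE 0.124, edgeR adjusted p = 1.3e-09), on the log2 scale. TEX19 fell by 1.40 in TE10 (edgeR adjusted p = 0.000506) and TDRD7 fell by 0.29 there (edgeR adjusted p = 0.0348). In Kyse410 TDRD3 rose by 0.30 (edgeR adjusted p = 0.00469) and HENMT1, which methylates piRNA ends, by 0.64 (edgeR adjusted p = 0.00623).

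Of 37 further meiosis genes 13 were tested, with 0 higher and 1 lower in TE10 and 5 higher and 2 lower in Kyse410. MSH5, a crossover protein, fell by 0.99 in TE10 (SE 0.256, edgeR adjusted p = 0.00154). In Kyse410 BRME1, a partner of BRCA2 in meiosis, rose by 1.13 (SE 0.161, edgeR adjusted p = 4.15e-08), PSMC3IP, a recombination cofactor, by 0.47 (edgeR adjusted p = 6.64e-08), and YTHDC2 fell by 0.42 (edgeR adjusted p = 3.18e-07). Of 72 further cancer-testis antigen genes 14 were tested, with 3 higher and 2 lower in TE10 and 4 higher and 5 lower in Kyse410. ACTL8, an actin-like gene of the testis, had 68, 57 and 53 reads in TE10 shUHRF1 libraries, against 9, 8 and 8 in TE10 scramble libraries (log2 2.95, SE 0.344, edgeR adjusted p = 6.23e-10). PLAC1, a trophoblast antigen, went the other way, with 0, 0 and 0 reads in TE10 shUHRF1 libraries, against 7, 8 and 9 in TE10 scramble libraries (edgeR adjusted p = 6.3e-05). OIP5 rose by 0.55 in TE10, and in Kyse410 KDM5B fell by 1.02, CEP55 rose by 0.32 and PBK by 0.34, each with an edgeR adjusted p under 0.05. OIP5, KDM5B, CEP55 and PBK are also transcribed in dividing somatic cells.

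Of 44 further pluripotency and early germ cell genes 11 were tested, with 6 higher and 2 lower in TE10 and 4 higher and 2 lower in Kyse410. The alkaline phosphatase genes ALPP and ALPG, of placenta and germ cells, rose in both lines (each edgeR adjusted p under 0.05). ALPP averaged 560 ± 0.284 CPM in TE10 shUHRF1 and 136 ± 3.87 CPM in TE10 scramble cells, and 249 ± 12.9 CPM in Kyse410 shUHRF1 and 40.2 ± 1.85 CPM in Kyse410 scramble cells. ALPG averaged 106 ± 7.91 CPM in TE10 shUHRF1 and 7.03 ± 1.71 CPM in TE10 scramble cells, and 131 ± 6.50 CPM in Kyse410 shUHRF1 and 5.70 ± 1.61 CPM in Kyse410 scramble cells. These paralogs are near-identical, so the split of reads between them is uncertain. TFAP2C, a factor of early germ cells that is also present in epithelia, rose by 0.46 in TE10 (edgeR adjusted p = 1.35e-07). KLF4 fell in both lines, by 0.28 in TE10 and 0.90 in Kyse410 on the log2 scale (edgeR adjusted p = 0.000654 and 1.28e-21).

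Of the 24 genes of the DNA methylation machinery that were tested, 8 were higher and 9 lower in TE10 and 6 higher and 12 lower in Kyse410. The genes counted as lower include UHRF1, the target of the hairpin, in both lines. DNMT3B, a de novo methyltransferase, rose by 0.55 in TE10 (edgeR adjusted p = 1.2e-07) and by 1.10 in Kyse410 (edgeR adjusted p = 5.96e-17). DNMT1 rose by 0.19 and 0.25 and the UHRF1 paralog UHRF2 fell by 0.28 and 0.24, in TE10 and Kyse410 in that order (each edgeR adjusted p under 0.05). DNMT3A was at 0.01 in TE10 (edgeR adjusted p = 0.964) and fell by 0.27 in Kyse410 (edgeR adjusted p = 0.0386). ZBTB4, a reader of methylated DNA, fell by 0.69 and 0.53, and USP7, which stabilises UHRF1 protein, rose by 0.46 in TE10 and fell by 0.15 in Kyse410. In Kyse410 PCNA rose by 0.74 and GADD45B fell by 0.66, each passing the edgeR test.

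A list of repressors of germline genes held PRC1.6, SETDB1 and HUSH genes, and also genes outside these complexes, EZH2 among them. Of its 34 tested genes, 8 were higher and 4 lower in TE10 and 8 higher and 15 lower in Kyse410. MGA, which anchors PRC1.6 to E-boxes, fell by 0.28 in TE10 (edgeR adjusted p = 8.22e-06) and by 0.60 in Kyse410 (edgeR adjusted p = 4.71e-16). L3MBTL2, another PRC1.6 subunit, rose by 0.42 in TE10 (edgeR adjusted p = 1.09e-05) and fell by 0.31 in Kyse410 (edgeR adjusted p = 0.00396). TRIM28, the corepressor that works with SETDB1, rose by 0.33 in TE10 and 0.29 in Kyse410, and in Kyse410 EZH2 rose by 0.58 and MORC2, of the HUSH pathway, fell by 0.53 (each edgeR adjusted p under 0.05).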

How the data were processed

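The deposited files hold raw counts, whole numbers of reads per Ensembl gene in each of 12 libraries. Per the submitters' processing notes, the build was GRCh37.p13 and the tools were HISAT2 2.1.0, HTSeq 0.9.1, bcl2fastq 2.19 and DESeq2. Which annotation release, strand setting and order of steps were used is not given in the sources used here. Between 42.88 and 44.66% of reads in a library were assigned to no feature and 5.49 to 6.86% were not unique, and both were left out. GENCODE 29 (GRCh38) gave symbols to 51997 of 57820 identifiers, exon overlaps and shared 50-base stretches, and RefSeq gave the promoters.

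Genes kept by filterByExpr (16060) were fitted with edgeR 4.0.16 (limma 3.58.1, R 4.3.3) by quasi-likelihood over all 12 libraries, with TMM and a mean for each group, which leaves 8 degrees of freedom. Calls used a Benjamini-Hochberg adjusted p under 0.05. Alternatives were RLE scaling, DESeq2 1.42.0, filters, single lines, a replicate block and leaving out each library. Replicates of a group differed by more than counting error (chi-square per degree of freedom 1.57 to 2.92). Intervals are at 95%, a floor is 3 reads in place of 0 with no error for the other group, and both cover counting error only. The pipeline was tested on simulated data. Tables and plots were made in Python 3.11.15 (SciPy 1.17.1, numpy 2.4.6, matplotlib 3.10.9, pandas 2.3.3).

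The members and the lists were chosen with earlier results of these data known. Reads in every library are given for members with at least 10 reads in all, and for other lists up to 3 called genes per line with the smallest adjusted p are named, besides UHRF1, UHRF2, DNMT1, DNMT3A and DNMT3B whatever their values and neighbouring or near-identical genes.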

Additional observations from a re-analysis of the deposited data

Results flagged for a closer look

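The response of ZFP42 to shUHRF1 differed between the lines, by −1.42 on the log2 scale for Kyse410 minus TE10 (SE 0.242, edgeR adjusted p = 3.61e-06). It passed with every library left out in turn. The 3 shUHRF1 libraries lay above the 3 scramble libraries in both lines, and the scramble level was 6.60 ± 0.643 CPM in Kyse410 and 2.07 ± 0.064 CPM in TE10 (SD, n = 3 each).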

How the results depend on the processing

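Of the 42 members 31 were too low for the test, so small changes in them were not resolvable at this depth, and near-identical copies and antisense overlaps could not be separated. With no filter, or with at least 10 reads in all, 9 members were called in TE10 (5 with the filter). With 10 reads, 6 were called without TE10 shUHRF1 replicate 1 and 9 without replicate 2, both chosen after seeing the data. Leaving out 1 library gave 4 to 7 members called in TE10, 6 to 9 in Kyse410, 1 throughout for the difference between lines and 3 to 5 between scramble controls (4 with RLE scaling and with DESeq2, 3 without TE10 scramble replicate 1, 2 or 3). No pairing of same-numbered libraries was seen (correlations −0.005 to 0.037), but a small shared effect may not show in these values. With a replicate block the counts stayed at 5 for TE10, 8 for Kyse410 and 1 for the difference. In that fit 3 members were called between scramble controls, compared at the level of replicate 1 of each line. This number cannot be set beside the 5 called without the block. With at least 3 reads as the minimum, 15.7 and 10.7 members were detected in TE10 shUHRF1 and scramble libraries, and 18.0 and 15.3 in Kyse410 shUHRF1 and scramble libraries, where the groups overlapped. At the smallest depth 19.9 were expected in Kyse410 scramble libraries, and with 150 bases 61.5% of all promoters reached the CpG ratio of 0.6. Leaving out 1 library turned the direction of 7 values that did not pass the test. In TE10, MOV10L1 ranged from −1.0 to 1.12 (positive without scramble replicate 1) and HORMAD1 from −0.48 to 0.01 (without scramble replicate 3). In Kyse410, MOV10L1 ranged from −0.04 (without scramble replicate 3) to 0.12. For Kyse410 minus TE10, SYCP3 ranged from −0.10 (without Kyse410 shUHRF1 replicate 2) to 0.55, and MOV10L1 from −1.07 (without TE10 scramble replicate 1) to 1.04. There TEX14 ranged from −0.70 to 0.41 (without TE10 shUHRF1 replicate 2, or 0.43 with 10 reads as well), and MAGEA3 from −0.76 (without TE10 scramble replicate 2, where both scramble groups hold 0 reads) to 2.62. MAGEA6 in TE10 did not pass with DESeq2 (adjusted p = 0.0621). The causes were not tested.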
